A study of Mus musculus with 2 samples.

Results

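The 6 hairpin genes described here, Mir15a, Mir16-1, Mir15b, Mir16-2, Mir195a and Mir497, belong to the mouse miR-15/16 family and lie at its 3 paired loci on autosomes. They were chosen by gene symbol in the GENCODE M21 annotation, without use of measured values, and are 6 of the 2202 miRNA genes in the deposited count tables. The tables come from small RNA sequencing of total RNA from adrenal gland of C57BL/6J mice, an inbred strain, with inserts shorter than 30 nt. The study holds 1 group of 2 libraries from tissue called wild type in a free-text label, numbered as biological replicates 1 and 2, and no treatment is named. The 2 have separate biosample records and 1 shared donor record, the fields for age and stage read unknown, and sex is male in that free-text label but not collected in its own field. No label says that the replicates are separate animals, so the spread between them may be technical, and no contrast of conditions exists.

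A microRNA is cut from a hairpin in a longer primary transcript, and either arm of the hairpin, named 5p or 3p, can be kept. The kept strand guides Argonaute proteins to messenger RNAs, mainly by pairing of its seed, bases 2 to 8 from the 5′ end. The miR-15/16 family is best known for restraining the cell cycle through mRNAs of G1 cyclins, cyclin-dependent kinases and the survival factor Bcl2, and loss of the MIR15A and MIR16-1 locus is a frequent event in human chronic lymphocytic leukaemia. The Mir195a and Mir497 locus is known from heart muscle, where miR-195 rises as cardiomyocytes leave the cell cycle after birth.

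The mature 5p sequences are shown because they define the family and because their differences decide which reads can be told apart. They are RefSeq entries on build GRCm38.p6, written 5′ to 3′ with the seed in capitals.
miR-15a-5p: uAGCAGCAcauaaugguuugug
miR-15b-5p: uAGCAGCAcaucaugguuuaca
miR-16-5p: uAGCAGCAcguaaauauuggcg
miR-195a-5p: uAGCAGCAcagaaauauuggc
miR-497a-5p: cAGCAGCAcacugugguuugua

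All 6 hairpins carry the seed AGCAGCA on the 5p arm, while the 6 3p arms have 6 different seeds. Beyond the seed the 5p sequences fall into 2 kinds of 3′ portion. Aligned at base 1, miR-16-5p and miR-195a-5p differed at 2 of 21 bases, and miR-15a-5p and miR-15b-5p at 4 of 22. By the same alignment miR-15a-5p differed from miR-16-5p, its neighbour on the primary transcript, at 6 of 22 bases. The pair of the other locus, miR-195a-5p and miR-497a-5p, differed at 9 of 21.

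The whole miR-16-5p sequence is found in both Mir16-1 and Mir16-2, and the hairpins share an unbroken stretch of 23 nt, longer than the 22 nt of the mature form. The tables set reads that map to several places aside, and these made up 37.8% of mapped reads in replicate 1 and 38.8% in replicate 2. A read was therefore counted at Mir16-1 or Mir16-2 only where it could be placed at one of them, through bases beyond that stretch or through another part of the hairpin, such as the 3p arm. The 3p arms, which do differ between the copies, are shown for this reason.
miR-16-1-3p: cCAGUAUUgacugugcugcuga
miR-16-2-3p: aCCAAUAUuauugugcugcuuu

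The levels of Mir16-1 and Mir16-2 are for this reason uncertain, since they leave out reads that fit both copies, and these tables do not give the number of such reads. The other 4 members share no stretch of 20 nt with another annotated hairpin at a different locus. Copies elsewhere in the genome were not searched, so multimapping reads of these 4 may also have been set aside. Their longest shared stretches were 13 nt for Mir15a, 12 nt for Mir15b, 16 nt for Mir195a and 12 nt for Mir497. The tables count reads per hairpin, so the 5p and 3p arms are not separated for any member.

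The members lie in pairs at 3 loci of mm10. Mir15a (ENSMUSG00000093007.1, chr14:61632027-61632110) and Mir16-1 (ENSMUSG00000092995.1, chr14:61631880-61631972) lie 54 nt apart on the minus strand, in an intron of the long noncoding gene Dleu2. Mir15b (ENSMUSG00000065580.2, chr3:69009772-69009835) and Mir16-2 (ENSMUSG00000065606.1, chr3:69009902-69009996) lie 66 nt apart on the plus strand, in an intron of Smc4, which encodes a subunit of the condensin complexes that compact mitotic chromosomes. Neither pair overlapped an exon in any of the annotated host transcripts spanning it, 8 of Dleu2 and 5 of Smc4. Mir497 (ENSMUSG00000105220.1, chr11:70234717-70234800) and Mir195a (ENSMUSG00000065411.2, chr11:70235042-70235135) lie 241 nt apart on the plus strand, with no host gene annotated on that strand in GENCODE M21. Mir497 is overlapped on the opposite strand by another miRNA gene, Mir497b, and the nearest protein-coding gene to Mir195a, 0610010K14Rik, lies 70 nt away on the opposite strand.

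Replicate 1 held 10263894 counts on the strand of a miRNA gene and replicate 2 held 3525666, from 20598186 and 10628898 reads. Unmapped reads were 13.8% of replicate 1 and 41.4% of replicate 2, and the part of this gap in the differences between the replicates below was not tested. Levels are given as CPM, the count scaled to a common total of these assigned counts. The label of adrenal tissue was checked on a few miRNA genes. Mir375 and Mir7b, of neuroendocrine cells such as those of the medulla, had 72033 ± 5673 and 4150 ± 838 CPM (SD, n = 2), and Mir139 and Mir21a had 21444 ± 4918 and 5944 ± 1034 CPM. The liver gene Mir122 stood at 101 ± 4.24 CPM, the kidney and gut gene Mir192 at 58.0 ± 17.0 CPM, and the muscle genes Mir206 and Mir499 at 2.35 ± 0.29 and 1.82 ± 0.64 CPM. Mir451a, of red blood cells, was 8085 CPM in replicate 1 against 1685 CPM in replicate 2, a wider gap than that of any member, and its part in the differences between the replicates below was not tested.

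All 6 members reached the detection minimum of 10 CPM in each library, which 267 of the 2202 genes did. Mir195a stood at 1115 CPM in replicate 1 against 3883 CPM in replicate 2, with a mean of 2499 ± 1957 CPM (SD, n = 2). Mir16-1 had 1936 and 2737 CPM, a mean of 2336 ± 567. The order of these members, the highest by mean, depended on the library. Mir16-1 was ahead in replicate 1 and Mir195a in replicate 2, and their ranges overlap. The level of Mir16-1 leaves out reads that also fit Mir16-2, so this order holds for uniquely placed reads only.

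Mir15a, the partner of Mir16-1, had 1215 and 772 CPM, a mean of 993 ± 313 (SD, n = 2). It stood below both values of Mir16-1 and above both values of Mir16-2, Mir497 and Mir15b. Against Mir195a, Mir15a was higher in replicate 1 (1215 against 1115 CPM) and lower in replicate 2 (772 against 3883 CPM). The ranges of Mir15a and Mir195a thus overlap. Mir16-2 had 406 and 601 CPM, a mean of 503 ± 138. Mir497 had 449 and 456 CPM, a mean of 453 ± 5.04. These last 2 exchanged places between the replicates and do not differ beyond their spread. Mir15b was the lowest member in both replicates, with 387 and 266 CPM and a mean of 326 ± 85.9.

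**Figure D1:**
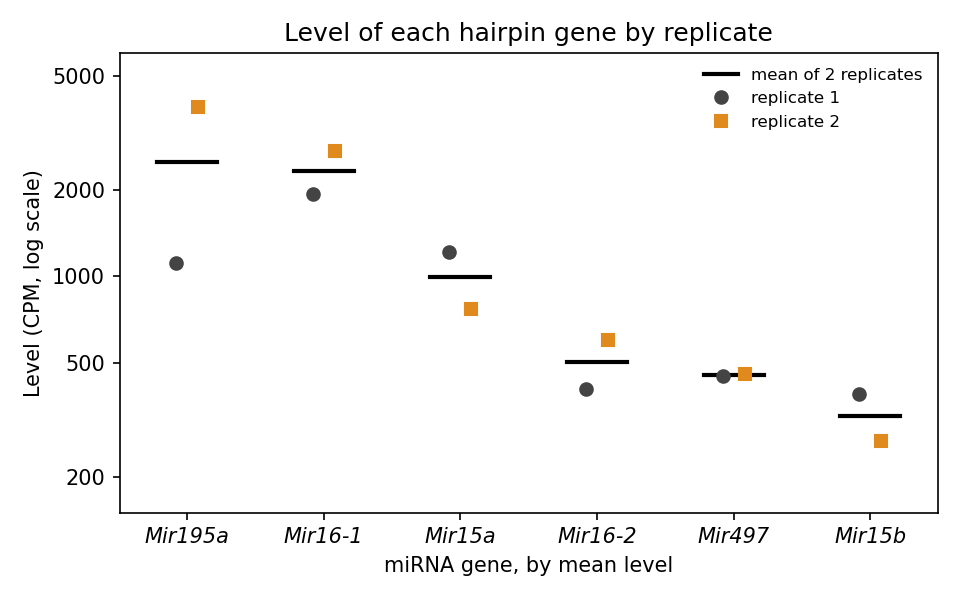
Level in CPM (log scale) of the 6 hairpin genes, ordered by their mean, with a circle for replicate 1, a square for replicate 2 and a bar for the mean of both. Mir195a spans from 1115 to 3883 CPM, while the replicates of Mir497 nearly coincide at 449 and 456 CPM.

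By mean level the members stood at rank 43 for Mir195a, 45 for Mir16-1, 65 for Mir15a, 99 for Mir16-2, 103 for Mir497 and 116 for Mir15b among all 2202 genes. The rank of Mir195a moved most, from 65 in replicate 1 to 36 in replicate 2. Each read is a whole small RNA and counts were not divided by length. Per nt of annotated hairpin, Mir497 at 5.39 CPM per nt passed Mir16-2 at 5.30 CPM per nt, and the other positions held. Together the 6 genes took 0.551% of assigned counts in replicate 1 (56534 counts) and 0.872% in replicate 2 (30727 counts), a mean of 0.711% ± 0.227 (SD, n = 2). The Wilson 95% intervals, which like all intervals here cover counting error only, ran from 0.546% to 0.555% and from 0.862% to 0.881%. Without Mir195a the remaining 5 genes took 0.439% and 0.483%, so the ratio of replicate 2 to replicate 1 was 1.58 with Mir195a and 1.10 without it.

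The Dleu2 locus held 57.2% of the family's counts in replicate 1 and 40.3% in replicate 2, a mean of 48.7% ± 12.0 (SD, n = 2). The Mir497 locus held 28.4% and 49.8%, a mean of 39.1% ± 15.1, and was the larger of these 2 loci in replicate 2 only. The Smc4 locus was the smallest in both libraries, with 14.4% and 9.95%, a mean of 12.2% ± 3.14. These shares move together because they sum to the whole. Reads that fit both Mir16-1 and Mir16-2 are left out of the Dleu2 and Smc4 loci. The order of the loci therefore holds for uniquely placed reads, and the order with those reads included was not tested. As shares of all assigned counts, the Dleu2 locus had 0.315% and 0.351% and the Smc4 locus 0.0793% and 0.0867%, replicate ratios of 1.11 and 1.09. The Mir497 locus had 0.156% and 0.434%, a replicate ratio of 2.77.

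**Figure D2:**
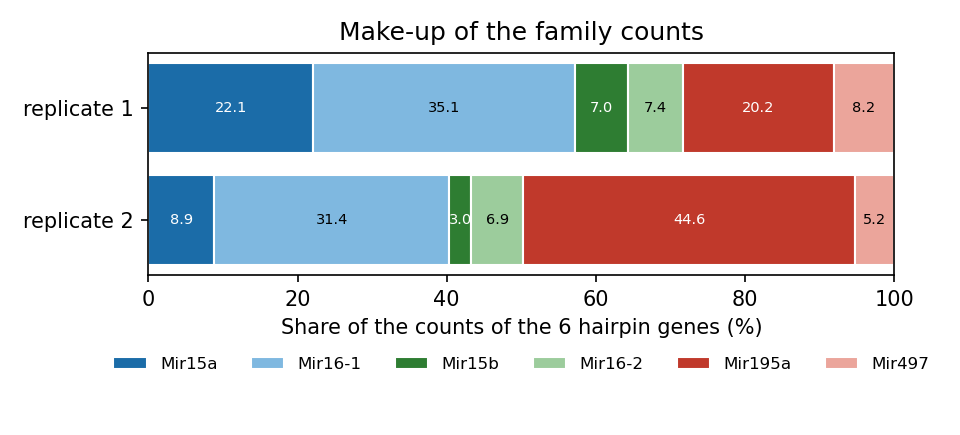
Share (%) of the counts of the 6 hairpin genes that came from each gene, as 1 stacked bar per replicate. Mir195a took 20.2% of replicate 1 and 44.6% of replicate 2, and Mir15a took 22.1% and 8.86%.

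The replicates were compared gene by gene with an exact two-sided binomial test and Benjamini-Hochberg adjustment over all genes tested, which asks whether 2 libraries differ beyond counting noise and says nothing of conditions. Of the 6 members, 5 passed, 3 higher in replicate 2 and 2 higher in replicate 1. Over all 443 genes tested 52.8% passed, 21.2% higher in replicate 2 and 31.6% higher in replicate 1. Because counts this high resolve small differences, the closer background is the 116 genes at or above the mean level of Mir15b, of which 92.2% passed, 40.5% higher in replicate 2 and 51.7% higher in replicate 1. The share of members that passed is therefore near the background. The median log2 ratio, replicate 2 over replicate 1, was 0.24 over the members and -0.17 over all genes tested.

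At the Dleu2 and Smc4 loci the direction went with the kind of miRNA and not with the locus. Both miR-15 genes were lower in replicate 2. Mir15a had a log2 ratio of -0.67 (95% interval -0.73 to -0.61, adjusted p = 4.99e-117, exact binomial test). Mir15b, on another chromosome, had -0.56 (-0.66 to -0.46, adjusted p = 5.84e-28, exact binomial test).

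Both miR-16 genes were higher in replicate 2, counting only reads that could be told apart. Mir16-1 had a log2 ratio of 0.48 (0.45 to 0.52, adjusted p = 2.88e-152, exact binomial test). Mir16-2 had 0.55 (0.47 to 0.63, adjusted p = 1.31e-43, exact binomial test). Within each kind the intervals of the 2 copies overlap.

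Mir195a was higher in replicate 2 as well, by 3.44-fold, with a log2 ratio of 1.78 (1.75 to 1.82). Mir497, from the same locus, had a log2 ratio of 0.01 (-0.08 to 0.09) and did not pass (adjusted p = 0.957, exact binomial test). Its interval excludes a change of the size seen in any other member. Of the 116 genes at or above the level of Mir15b, 19.8% had replicates over 1.5-fold apart, 8.62% over 2-fold, and 5.17% at least as far apart as Mir195a. Among the members, Mir15a and Mir195a were over 1.5-fold apart and Mir195a over 2-fold.

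**Figure D3:**
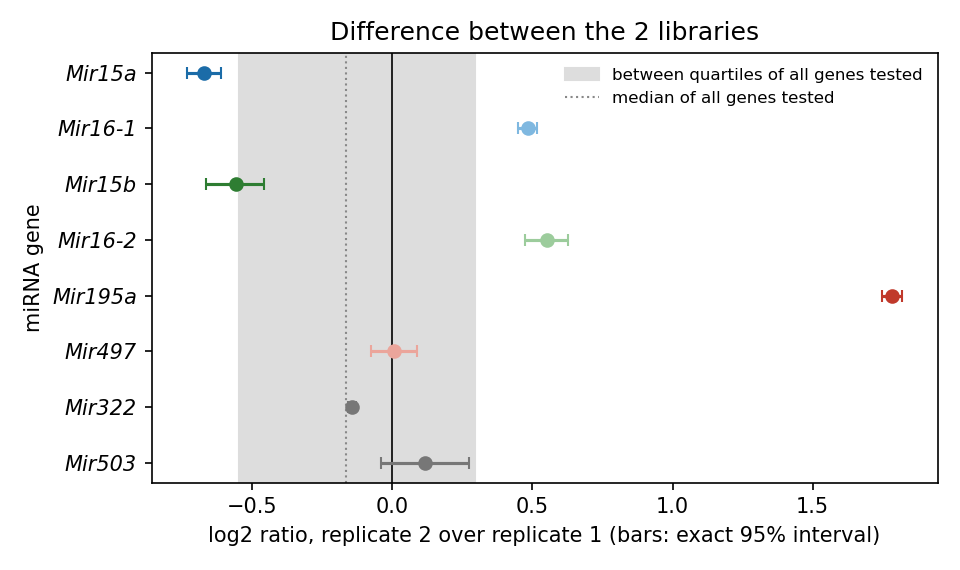
Log2 ratio of replicate 2 over replicate 1 for the 6 members and for Mir322 and Mir503, with exact 95% intervals, over a band between the quartiles of all genes tested (-0.55 and 0.30) and a dotted line at their median of -0.17. Mir15a and Mir15b lie left of 0, and Mir16-1, Mir16-2 and Mir195a lie right of the band.

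**Figure D4:**
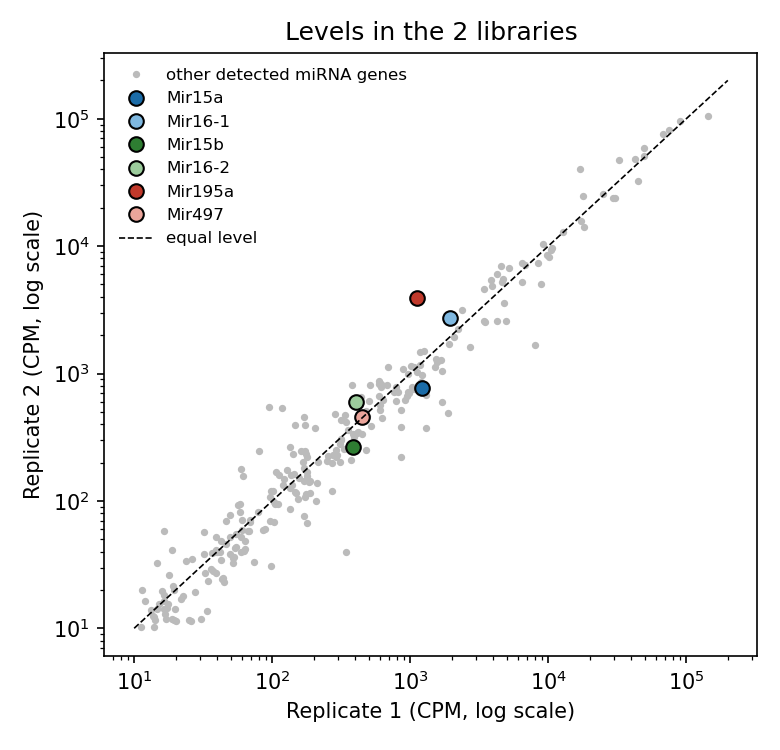
CPM in replicate 1 against CPM in replicate 2 (both log scales) for the genes detected in both libraries, with the 6 members in colour and a dashed line of equal level. Mir195a lies farthest of the members from the line, at 1115 and 3883 CPM, and Mir497 lies on it.

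The 2 hairpins of a locus are known to be cut from a shared primary transcript. Their ratio within a library does not depend on how the libraries were scaled. Mir16-1 counts exceeded Mir15a counts 1.59-fold in replicate 1 and 3.55-fold in replicate 2. At the Smc4 locus, Mir16-2 exceeded Mir15b 1.05-fold in replicate 1 and 2.26-fold in replicate 2. The change between the libraries was thus of similar size at both loci, 2.23-fold (95% interval on the log2 scale from 1.08 to 1.22) at Dleu2 and 2.16-fold (from 0.98 to 1.24) at Smc4. In these ratios Mir16-1 and Mir16-2 count only reads that could be told apart. The part of this limit in the change was not tested. Mir195a exceeded Mir497 2.48-fold in replicate 1 and 8.51-fold in replicate 2, a change of 3.43-fold (from 1.69 to 1.87).

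The ratios of the copies at the 2 loci differed far less between the libraries. Mir15a made up 75.8% of the counts of Mir15a and Mir15b in replicate 1 and 74.4% in replicate 2, a mean of 75.1% ± 1.02 (SD, n = 2). Mir16-1 made up 82.7% and 82.0% of the counts of Mir16-1 and Mir16-2, a mean of 82.3% ± 0.48. The change of the log2 ratio between the libraries was -0.11 for the miR-15 copies, with a 95% interval from -0.23 to 0.01, and -0.07 for the miR-16 copies, with an interval from -0.15 to 0.02. Both intervals include 0, and both exclude a change of the size seen within the loci. The Dleu2 copies were thus the larger source of uniquely placed reads, 3.02-fold above Smc4 for miR-15 and 4.66-fold for miR-16 as the mean over the replicates. The ratio of the miR-16 copies covers only reads that could be told apart.

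**Figure D5:**
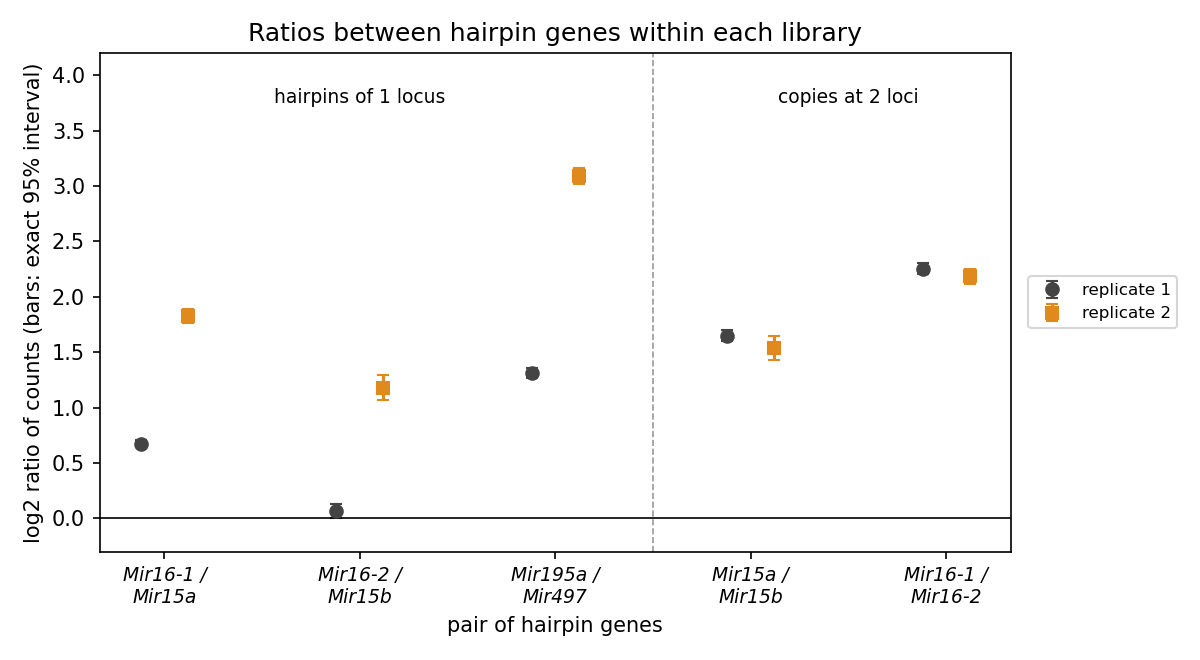
Log2 ratio of the counts of 2 hairpin genes within each library, with exact 95% intervals, for the pairs of 1 locus (left of the dashed line) and for the copies at 2 loci (right). The replicates stand apart for each pair of 1 locus, by 1.15, 1.11 and 1.78, and close together for the copies, by -0.11 and -0.07.

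Opposite-strand and same-seed genes were followed for comparison. Mir497b, annotated opposite Mir497, had no count on its own strand in either library, and the 4611 and 1609 counts of Mir497 appear in full as antisense counts of Mir497b. In the column without regard to strand, Mir497 has no count, since reads at overlapping genes are not assigned there. None of the other 5 members had an antisense count.

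Outside the 6 members, 5 miRNA genes matched by symbol to the count tables carry the seed AGCAGCA in a RefSeq mature sequence. RefSeq genes whose symbol was not matched were not followed. Counts and shares called those of the family cover the 6 members only. Mir322 on the X chromosome, the mouse counterpart of human MIR424, stood at 17149 CPM in replicate 1 against 15718 CPM in replicate 2, above each member in each library. Mir195b, Mir6342, Mir6353 and Mir6419 had no count, which allows up to 0.292 CPM of uniquely placed reads in replicate 1 and 0.851 CPM in replicate 2. Of the counts at the 6 members and these 5 genes, the members held 24.3% in replicate 1 and 35.7% in replicate 2, and Mir322 held the rest. These shares cover uniquely placed reads of both arms. The members' share leaves out miR-16-5p reads that fit both copies, so it is a lower bound in that respect. Mir503, the neighbour of Mir322, which has the seed AGCAGCG, had 120 and 132 CPM and did not pass (adjusted p = 0.222, exact binomial test). The sequences below show how far Mir322 and Mir503 depart from the members after the seed.
miR-322-5p: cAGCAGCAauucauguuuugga
miR-503-5p: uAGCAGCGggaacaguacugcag

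Other miRNA lists known for acting on the cell cycle were set beside the family. Over all 443 genes tested 52.8% passed, 21.2% higher in replicate 2 and 31.6% higher in replicate 1. Among the 116 genes at or above the mean level of Mir15b, 92.2% passed. The calls below are therefore not read as a trait of the lists. Of the Mir17 list, the mir-17-92 cluster and its paralogs that promote proliferation, 10 of 15 genes were detected. Of its 12 genes tested, 4 were called higher in replicate 2, 4 higher in replicate 1 and 4 did not pass. Mir17 led it at 901 ± 207 CPM (SD, n = 2), above Mir93 at 788 ± 2.80 and Mir92-1 at 557 ± 78.1, levels between the means of Mir16-2 and Mir15a. Mir92-1 shares a stretch of 20 nt with Mir92-2 and is uncertain. Of the Mir34 list, p53 targets and their relatives, 4 of 6 genes were detected, none was called higher in replicate 2, 3 were called higher in replicate 1 and 1 did not pass. Mir34c had 1868 and 490 CPM and Mir34a 1690 and 600 CPM, both higher in replicate 1 and so opposite to Mir195a, above Mir34b at 38.3 and 39.7 CPM. Of the H19X list, which holds Mir322 and Mir503, 5 of 7 genes were detected, 1 was called higher in replicate 2, 3 higher in replicate 1 and 3 did not pass, with Mir351 at 2367 and 3165 CPM and Mir542 at 214 and 200 CPM after Mir322.

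Likeness to other genes was measured as the distance between log2(CPM + 1) values over the 2 libraries, so it describes level and replicate ratio only. Mir16-1 had the closest neighbour of all members, Mir423, at a distance of 0.05 (2000 and 2755 CPM). Mir676 at 0.34 and Mir351 at 0.36 followed. Nearest to Mir15a were Mir337 at 0.15, Mir17 at 0.22 and Mir132 at 0.22, and nearest to Mir15b were Mir338 at 0.23, Mir20a at 0.25 and Mir7-1 at 0.32. Mir16-2 lay closest to Mir299a at 0.18, Mir92-1 at 0.31 and Mir434 at 0.35. Mir497 lay closest to Mir485 at 0.12, Mir434 at 0.17 and Mirlet7a-1 at 0.32. Mir195a had no close neighbour, and the nearest was Mir16-1 at a distance of 0.94, before Mir423 at 0.98 and Mir351 at 1.12. Mir7-1, Mir92-1 and Mirlet7a-1 have 20 nt in common with a hairpin at another locus and are uncertain.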

How the data were processed

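The authors deposited raw counts, 1 table per library, with 4 summary lines, 2202 miRNA genes and 3 unlabelled columns of whole-number counts. The tables use mm10 and GENCODE M21, per the file headers of the accompanying description files. For the aligner and the counter, the sources used here give no name. From the values, the columns hold counts without regard to strand, on the gene's strand (used here) and on the opposite strand. Multimapping, unmapped and no-feature lines stayed out of library sizes.

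All 2202 identifiers matched GENCODE M21. CPM was computed over assigned counts. Library sizes were scaled by TMM (edgeR 4.0.16, R 4.3.3; factors 0.994 and 1.006). Genes whose counts summed to 10 or more were tested by an exact two-sided binomial test with Benjamini-Hochberg adjustment at 0.05. Log2 ratios have 0.5 counts added, and intervals are at 95%. Intervals for a change of a ratio between libraries use the normal approximation to log counts. Hairpins were compared for shared 20 nt stretches on either strand, using GENCODE M21 transcripts. Mature sequences are from RefSeq (GRCm38.p6), which held an entry for all 6 members.

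Counts were simulated for this comparison with counting noise only and rescaled by TMM, with 453 genes tested. Of these, 63 of 100 genes changed 1.5-fold and 88 of 99 changed 3-fold were called in the right direction. Wrong calls were made for 11 of 254 unchanged genes. Variation between replicates beyond counting noise was not simulated, so these rates say nothing of it. The rule for the members uses gene symbols and no measured values, but it and the lists were set with earlier results of these data known. Named are all members, same-seed genes, the 3 highest genes of each list and the 3 nearest genes of each member. The tissue check genes come from a list written with them. Alternatives were other scalings (total counts, DESeq2 1.42.0 size factors), other filters, the column without strand, other denominators and single replicates. Python 3.11.15, numpy 2.4.6, pandas 2.3.3, scipy 1.17.1 and matplotlib 3.10.9 did the rest.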

Additional observations from a re-analysis of the deposited data

How the results depend on the processing

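Under total counts, DESeq2 size factors, no minimum beyond 1 count and a minimum of 10 CPM, the same 5 members passed the exact binomial test in the same directions and Mir497 did not pass. In the column without regard to strand these 5 passed and Mir497, with no count, could not be tested. The log2 ratio of Mir15a ran from -0.67 to -0.59 and that of Mir195a from 1.78 to 1.86 over these settings, and from 206 to 231 genes passed in all, against 234. The median log2 ratio of all genes tested ran from -0.17 to -0.06. The family share fell to 0.427% without Mir16-1 and Mir16-2, which share a stretch of 20 nt, and to 0.461% without Mir195a, an alternative chosen after seeing the data. From single replicates the family share was 0.551% and 0.872%. It was 0.659% over all uniquely mapped reads, 0.809% over counts without Mirlet7g and 0.760% without regard to strand, against 0.711%. Leaving out a replicate leaves 1 library, so the replicate comparison has no value without either. No paired analysis was possible because the series holds 1 group. Depth does not limit the levels of the members, each with 937 counts or more in either library. The levels of Mir16-1 and Mir16-2 leave out any reads of miR-16-5p set aside as multimapping, whose number is not known.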

Other observations

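The change of the ratio within a locus was set beside other clustered hairpins, a comparison chosen after the data were seen. Among 57 pairs of neighbouring detected hairpins on 1 strand and at most 1000 nt apart, the replicate log2 ratios of the 2 hairpins differed by a median of 0.56 (1.48-fold), with quartiles at 0.26 and 0.94 and a highest value of 1.98 for Mir34c and Mir34b. The pair Mir497 and Mir195a, at 1.78, was the second farthest apart. The pair Mir16-1 and Mir15a, at 1.15, stood at place 6 and the pair Mir15b and Mir16-2, at 1.11, at place 8. All 3 pairs of the family thus lay above the upper quartile. These pairs share the same 2 libraries, so this is a description.

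Mir15a and Mir15b together stood at 0.160% of assigned counts in replicate 1 against 0.104% in replicate 2 (0.648 times). Mir16-1 and Mir16-2 together stood at 0.234% and 0.334% (1.43 times), leaving out reads that fit both copies. Mir322 on the X chromosome and the 6 members together took 2.27% and 2.44% of assigned counts, a mean of 2.35% ± 0.126 (SD, n = 2). The relative spread was narrower than that of the 6 members without Mir322. Mir322 alone made up 75.7% and 64.3% of these counts, so the sum mostly follows its level.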
